A study of Mus musculus with 3 samples.

Results

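The integrin genes of macrophages described here are the alpha subunit genes Itgam, Itgal, Itgax, Itgav, Itga4, Itga5 and Itga6 and the beta subunit genes Itgb1, Itgb2 and Itgb5. They were chosen by gene symbol, without use of their values, and make up 10 of the 55536 annotated genes. Chromatin-fraction RNA, depleted of ribosomal RNA, had been sequenced from bone marrow-derived macrophages of C57BL/6J mice, primary cells grown from marrow. All cells had received lipid A, the membrane anchor of lipopolysaccharide and a ligand of Toll-like receptor 4, at 100 ng/ml for 50 min. The 3 libraries form 1 group of biological replicates numbered 1, 2 and 3, with 1000, 250 and 500 ng of starting RNA, and the labels give all 3 the same donor code, so the spread between them may be technical as well as biological. Age and sex were not recorded in the labels, and no untreated cells or other fractions were analysed here. The values below are therefore levels and their spread over 3 libraries, with no test between conditions.

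Integrins are cell surface receptors made of 1 alpha and 1 beta subunit, which join in the endoplasmic reticulum before they reach the membrane. The alpha subunit largely sets the ligand, and talin and kindlin bind the short beta tail to switch the receptor to its active form. Itgb2 (CD18) pairs with the alpha subunits of leukocytes: with Itgam (CD11b) it forms Mac-1, also called complement receptor 3, with Itgal (CD11a) LFA-1, and with Itgax (CD11c) complement receptor 4. Itgb1 (CD29) pairs with Itga4 in a receptor for VCAM-1 and fibronectin, with Itga5 in the main fibronectin receptor and with Itga6 in a laminin receptor. Itgav pairs with Itgb1, Itgb5 and other beta subunits, and the receptor with Itgb5 binds vitronectin and takes part in the uptake of apoptotic cells. RNA on chromatin holds nascent and not yet fully spliced transcripts, so its levels need not follow the amount of receptor on the cell.

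Promoter sequences were found in RefSeq (GRCm38.p6) for 7 of the 10 genes, namely Itgam, Itgax, Itgav, Itga4, Itga5, Itgb1 and Itgb5, and not for Itgal, Itga6 and Itgb2. The 250 bases before the RefSeq start are shown for Itga5 and Itgav, whose levels were the highest, and for Itgam and Itgb5, which were low in replicate 1 together with Itga5. Each runs 5′ to 3′ towards the gene, with CpG dinucleotides in capitals. Itga5 lies at chr15:103366792-103367041 on the minus strand, Itgav at chr2:83724147-83724396, Itgam at chr7:128062390-128062639 and Itgb5 at chr16:33829415-33829664, the last 3 on the plus strand.
Itga5: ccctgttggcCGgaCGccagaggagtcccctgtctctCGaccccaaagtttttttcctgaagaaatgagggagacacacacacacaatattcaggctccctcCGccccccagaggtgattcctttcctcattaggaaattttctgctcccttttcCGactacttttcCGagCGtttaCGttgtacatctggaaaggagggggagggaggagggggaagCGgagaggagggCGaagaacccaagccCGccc
Itgav: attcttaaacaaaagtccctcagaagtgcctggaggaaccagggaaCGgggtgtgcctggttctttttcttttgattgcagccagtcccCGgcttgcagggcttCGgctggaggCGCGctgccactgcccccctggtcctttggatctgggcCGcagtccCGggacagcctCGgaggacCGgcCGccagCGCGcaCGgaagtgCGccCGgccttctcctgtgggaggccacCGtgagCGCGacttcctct
Itgam: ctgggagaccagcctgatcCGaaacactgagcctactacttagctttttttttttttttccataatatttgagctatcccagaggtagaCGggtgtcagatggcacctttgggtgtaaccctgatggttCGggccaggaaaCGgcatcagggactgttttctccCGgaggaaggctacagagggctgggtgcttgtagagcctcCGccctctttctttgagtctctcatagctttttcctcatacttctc
Itgb5: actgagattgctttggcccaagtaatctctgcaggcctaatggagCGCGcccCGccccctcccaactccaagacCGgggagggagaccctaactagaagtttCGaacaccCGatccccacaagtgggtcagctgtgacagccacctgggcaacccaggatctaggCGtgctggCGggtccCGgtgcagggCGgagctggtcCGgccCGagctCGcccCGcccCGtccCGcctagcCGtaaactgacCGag

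The promoters differed in base composition. Itgav and Itgb5 each held 18 CpG dinucleotides with a GC content of 64.4% and 65.2%, Itga5 held 11 at 55.6%, and Itgam held 6 at 49.6%. Among the promoters not shown, Itgb1 held 21 CpG at 68.0% GC, Itga4 6 at 64.0% and Itgax 5 at 50.0%. The median over 32817 promoters of the same length was 6 CpG and 52.4% GC. A PU.1-type motif, GAGGAAG on either strand, lay 84 bases before the start of Itgam and 8 bases before that of Itgav, and 10.6% of all promoters held one; PU.1 is the lineage factor of macrophages. A GC box, GGGCGG on either strand, was present in Itga5, Itgam, Itgb5, Itga4 and Itgb1 and in 32.7% of all promoters, while the AP-1 motif TGANTCA was present in Itgax alone among the 7, 56 bases before its start, and in 6.75% of all. No TATAAA was found in the 7, against 12.4% of all promoters. These matches describe letters only.

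All 10 integrin genes were detected, which means at least 10 expected counts (estimated counts that need not be whole) in each of the 3 libraries. The same held for 21.9% of all annotated genes and for 43.9% of the 22028 protein-coding genes. The lowest count of a member in any library was 94 and the highest 35203, so no member was near the detection limit. Levels are given as TPM, transcript abundance per length scaled to a fixed sum. The genes fell into a high set of 3 alpha genes and a low set of the other alpha genes, with the beta genes in between or low.

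**Figure D1:**
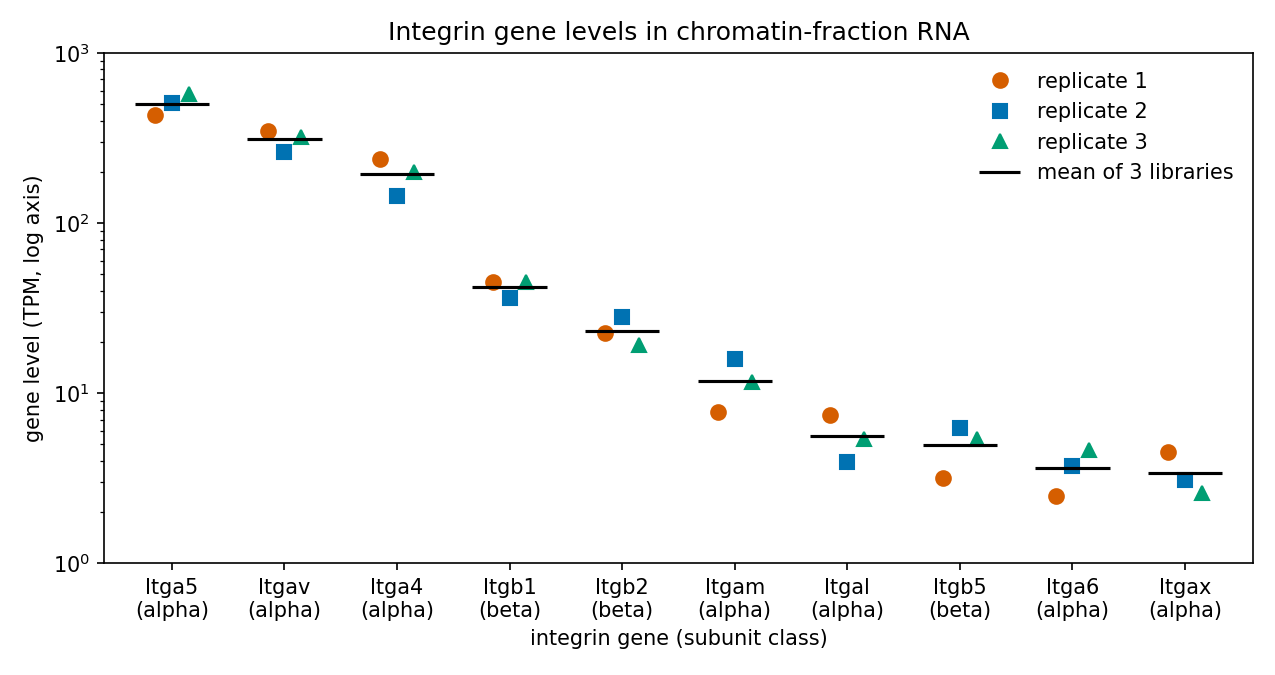
Level of each integrin gene in TPM (log axis) in replicates 1, 2 and 3, with the mean as a bar, ordered by mean. Itga5, Itgav and Itga4 lie above 143 TPM in every library, and the last 4 genes lie below 7.5 TPM and overlap with their neighbours.

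Itga5, the alpha subunit of the fibronectin receptor, had the highest level of the 10 genes. It stood at 430.9, 506.08 and 574.16 TPM in replicates 1, 2 and 3, a mean of 504 ± 71.7 (SD, n = 3), and was higher than 99.7% of the detected protein-coding genes. The gene (ENSMUSG00000000555.8) spans 22.5 kb at chr15:103344286-103366763 (mm10) on the minus strand. Its lowest library lay above the highest library of Itgav, the next gene.

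Itgav, the alpha subunit of vitronectin receptors, stood at 349.48, 260.83 and 321.53 TPM, a mean of 311 ± 45.3 (SD, n = 3). The gene (ENSMUSG00000027087.11) spans 82.5 kb at chr2:83724397-83806916. Itga4, which binds VCAM-1, followed at 238.02, 143.39 and 200.25 TPM, a mean of 194 ± 47.6 (SD, n = 3), from chr2:79255426-79333123 (ENSMUSG00000027009.18). Itgav exceeded Itga4 in all 3 libraries, and no library of Itga4 (highest 238.02) reached the lowest of Itgav (260.83). Itga5, Itgav and Itga4 together made up 97.6% ± 0.400 (SD, n = 3) of the summed TPM of the 7 alpha genes, with 48.9% ± 6.63 from Itga5 alone.

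The alpha subunits that pair with Itgb2 were far lower. Itgam, the CD11b gene by which macrophages are commonly stained, stood at 7.78, 15.92 and 11.65 TPM, a mean of 11.8 ± 4.07 (SD, n = 3). Replicate 1 was the lowest and replicate 2 the highest. Itgal stood at 7.47, 3.93 and 5.35 TPM (5.58 ± 1.78, SD, n = 3), with replicate 1 the highest. Itgax, the CD11c gene, stood at 4.51, 3.07 and 2.60 TPM (3.39 ± 0.995, SD, n = 3). Itga5 exceeded Itgam 55.4-fold, 31.8-fold and 49.3-fold in replicates 1, 2 and 3. Itgam was 1.73, 5.19 and 4.48 times Itgax, so the order was the same in every library but the ratio was lowest in replicate 1. In the second deposited quantification of the same libraries, described last, Itgam (8.99 TPM) lay below both Itgax (10.16) and Itgal (16.72) in replicate 1. Itga6, a laminin receptor subunit, stood at 2.49, 3.73 and 4.65 TPM (3.62 ± 1.08, SD, n = 3), from a gene of 112.8 kb at chr2:71745616-71858416 (ENSMUSG00000027111.15).

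Among the beta genes Itgb1, the partner of many alpha subunits, was the highest. It stood at 44.76, 36.07 and 45.12 TPM, a mean of 42.0 ± 5.12 (SD, n = 3), from chr8:128685654-128733200 (ENSMUSG00000025809.15). Itgb2, the leukocyte beta subunit, stood at 22.57, 28.18 and 19.18 TPM (23.3 ± 4.55, SD, n = 3), from chr10:77530252-77565708 (ENSMUSG00000000290.13). Itgb1 was the higher of both in every library, by 1.98-fold, 1.28-fold and 2.35-fold. Itgb5, the vitronectin receptor subunit, stood at 3.19, 6.26 and 5.38 TPM (4.94 ± 1.58, SD, n = 3), from the longest of the 10 genes, 119.7 kb at chr16:33829665-33949338 (ENSMUSG00000022817.15). Of the summed TPM of these 3 beta genes, Itgb1 held 59.8% ± 7.51, Itgb2 33.2% ± 6.30 and Itgb5 7.04% ± 2.26 (SD, n = 3).

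From Itga5 down to Itgal the order of means held without overlap: no library of a gene reached the lowest library of the gene above it. The narrowest gap lay between Itgam, at least 7.78 TPM, and Itgal, at most 7.47 TPM, both in replicate 1. Below that, the library ranges of Itgal overlapped with those of Itgb5, Itgb5 with Itga6 and Itga6 with Itgax. Within the same library, Itgb5 exceeded Itga6 in all 3, Itga6 exceeded Itgax in 2 and Itgal exceeded Itgb5 in 1. The order of Itgal and Itgb5 and of Itga6 and Itgax thus did not hold in every library. In rank among the detected protein-coding genes, Itgav stood at percentile 99.3, Itga4 at 98.4, Itgb1 at 89.9, Itgb2 at 82.3 and Itgam at 69.3. Itgal, Itgb5, Itga6 and Itgax stood between percentile 40.7 and 53.2, near the middle of all detected coding genes.

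Set against their partners, the 2 beta families differed. Itgb2 was 1.14, 1.23 and 0.979 times the summed Itgam, Itgal and Itgax in replicates 1, 2 and 3, a mean of 1.12 ± 0.127 (SD, n = 3). The summed Itga4, Itga5, Itga6 and Itgav were 22.8, 25.3 and 24.4 times Itgb1 (24.2 ± 1.28, SD, n = 3). In the second quantification this ratio to Itgb1 was lower, at 16.8 ± 1.38, and that of Itgb2 to its partners was 1.26 ± 0.232 (SD, n = 3). Itgav alone was 109.6, 41.7 and 59.8 times Itgb5. These ratios compare levels per length of RNA on chromatin and give no count of receptor subunits.

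The level depends on which annotated transcripts were given the reads. GENCODE sorts the transcripts of a coding gene into classes, among them protein-coding, retained intron, processed transcript (no open reading frame) and nonsense-mediated decay. The protein-coding class held 98.3% ± 2.88 (SD, n = 3) of the TPM of Itgam, 93.7% ± 10.96 of Itgb5, 84.3% ± 6.72 of Itgb2, 79.0% ± 2.33 of Itgb1 and 72.9% ± 4.17 of Itgal. It held 57.4% ± 6.00 of Itga5, 55.6% ± 5.77 of Itgax, 53.8% ± 6.13 of Itga6, 30.3% ± 5.45 of Itga4 and 25.8% ± 4.74 of Itgav. Itga4 and Itgav were thus the only 2 of the 10 below 50% by TPM of the first quantification, while 41.8% of 9032 detected coding genes with more than 1 transcript were below it. In the second quantification 6 of the 10 were below 50%, with Itga5 (42.6%), Itgax (45.3%), Itga6 (45.8%) and Itgb1 (47.5%) besides these, and by expected counts 0 were. No share over all genes was computed for either of these. The median share was 65.1% over the integrin genes and 56.6% over those 9032 genes.

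**Figure D2:**
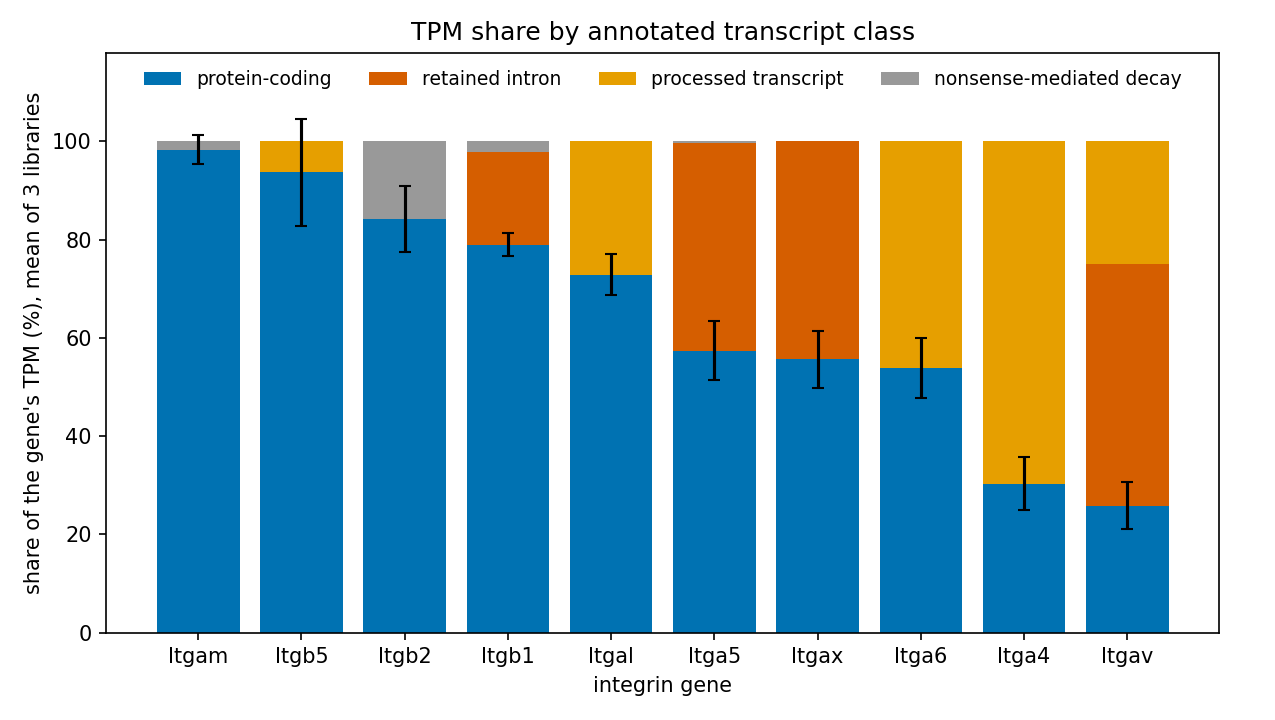
Share of each gene's TPM (%) by annotated transcript class, as the mean of 3 libraries, with the SD of the protein-coding share as error bars. The protein-coding share runs from 98.3% in Itgam to 25.8% in Itgav.

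The remaining share took different forms. Retained-intron transcripts held 49.3% of Itgav, 44.4% of Itgax, 42.4% of Itga5 and 18.8% of Itgb1. Processed transcripts held 69.7% of Itga4, 46.2% of Itga6, 27.1% of Itgal and 24.9% of Itgav, and nonsense-mediated decay transcripts held 15.7% of Itgb2. Such short transcripts weigh more in TPM, which divides by length, than in counts. By expected counts the protein-coding share was 94.9% for Itga5, 67.9% for Itga4 and 55.1% for Itgav. It was 99.1% for Itgal, 95.2% for Itgax and 70.3% for Itga6. The processed share of Itgal rested on Itgal-206 (330 bases), with 3 expected counts in each library. The retained-intron share of Itgax rested on Itgax-202 (2.69, 2.93 and 1.22 expected counts in replicates 1, 2 and 3) and Itgax-204 (2, 5 and 3).

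In Itgav the transcript with the highest mean was not a coding one in the first quantification. Itgav-203, a retained-intron transcript of 4 exons and 1738 bases, stood at 93.91, 91.74 and 94.40 TPM, nearly the same in all 3 libraries. Bases that lie between the exons of the longest coding transcript made up 50.5% of it. Itgav-209, a processed transcript of 2777 bases of which 78.7% were such intronic bases, stood at 67.9 TPM, and the full coding transcript Itgav-201, with 30 exons and 7054 bases, at 67.4 ± 25.6 TPM (SD, n = 3). The coding transcript stood at 95.44, 45.39 and 61.30 TPM and varied more between libraries than Itgav-203, which it exceeded in replicate 1. In the second quantification Itgav-201 was the higher, at 115.4 TPM against 96.7 TPM. The non-coding Itgav transcripts sat towards the 5′ end: the mean position of their exonic bases was 24.8% of the way along the span of the longest coding transcript for Itgav-203, 15.3% for Itgav-209 and 15.4% for Itgav-208 (57.8 TPM, retained intron).

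Itga4 also held non-coding transcripts towards its 5′ end. The coding transcript Itga4-201 (28 exons) had the highest mean, with 79.97, 34.44 and 66.67 TPM. The processed transcript Itga4-203, at 36.23, 50.74 and 49.44 TPM, was higher in replicate 2, and it led in the second quantification, at 96.2 TPM against 62.0 TPM. The processed transcripts Itga4-203 (45.5 TPM), Itga4-205 (33.8 TPM), Itga4-202 (31.9 TPM) and Itga4-204 (22.4 TPM) had their exonic bases centred between 1.5% and 35.8% of that span. Itga4-205 holds 2 exons, centred 1.5% along the gene, and 76.1% of its bases were intronic to the coding transcript. In Itga5 the coding transcript Itga5-201 led clearly, with 219.1, 317.2 and 336.1 TPM. Its 2 retained-intron transcripts, Itga5-204 at 110.0 TPM and Itga5-203 at 101.6 TPM, were short (563 and 425 bases) and centred at 69.8% and 46.2% of the gene, not at its 5′ end.

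**Figure D3:**
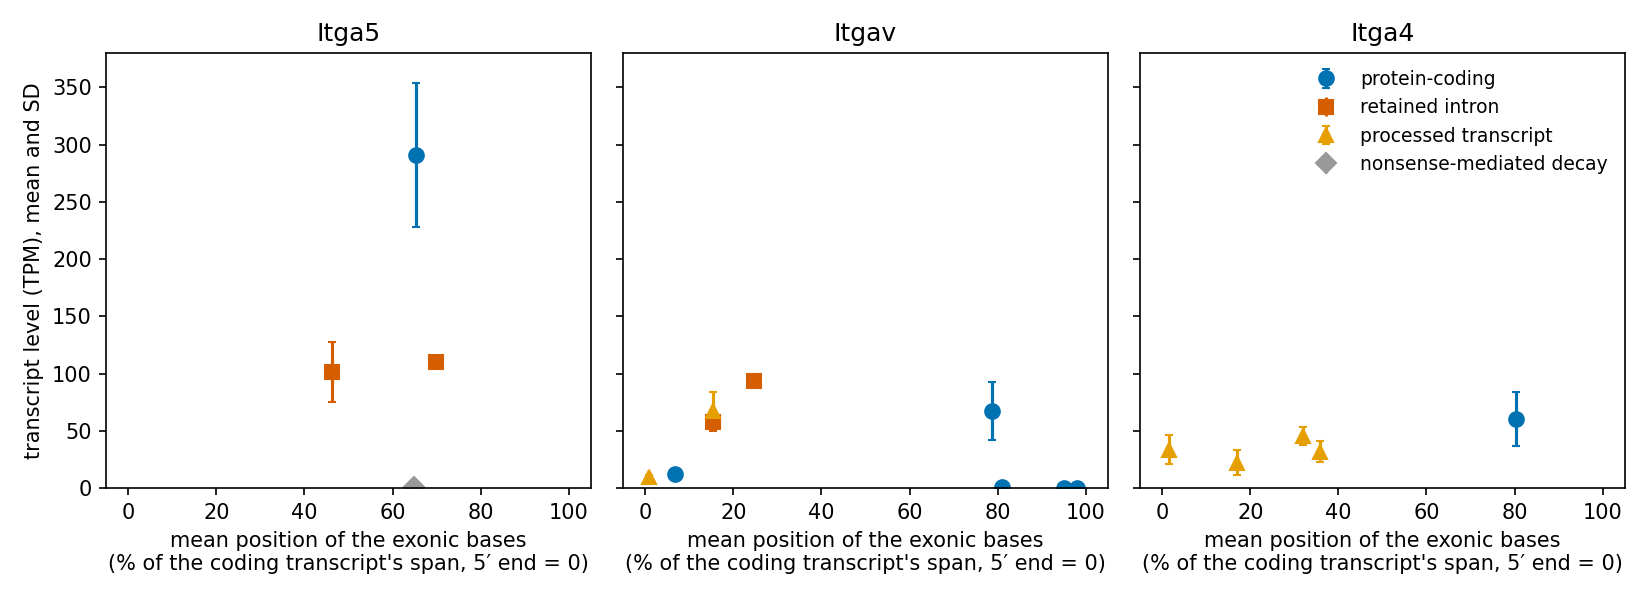
Level of each annotated transcript (TPM, mean and SD of 3 libraries) of Itga5, Itgav and Itga4 against the mean position of its exonic bases, as a percentage of the span of the longest coding transcript from its 5′ end. Non-coding transcripts of Itgav and Itga4 lie at or below 35.8% of the span, and the retained-intron transcripts of Itga5 lie at 46.2% and 69.8%.

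Counting only protein-coding transcripts, the first 6 genes kept their order. From Itgav down to Itgam the means lay closer together in ratio, while Itga5 lay further above Itgav. Itga5 stood at 291 ± 62.8 TPM, Itgav at 81.5 ± 25.9, Itga4 at 60.4 ± 23.4, Itgb1 at 33.2 ± 4.82, Itgb2 at 19.7 ± 4.46 and Itgam at 11.6 ± 4.09 (SD, n = 3 each). On this scale Itgav (108.5, 56.9 and 79.1 TPM) and Itga4 (80.0, 34.4 and 66.7 TPM) overlapped between libraries, which they did not over all transcripts. Itga4 (lowest 34.44 TPM) also overlapped there with Itgb1 (highest 36.46 TPM). Within each library Itgav still exceeded Itga4, and Itga4 exceeded Itgb1. Itgb5, Itgal, Itga6 and Itgax followed with means from 4.55 to 1.91 TPM.

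The transcripts of Itgam differed between libraries. Itgam-203, a coding transcript of 30 exons, stood at 5.02, 7.34 and 6.22 TPM. Itgam-205, a coding transcript of 29 exons, stood at 0.39, 7.52 and 3.12 TPM, and Itgam-201 at 2.37, 0.90 and 1.51 TPM. The gap between replicates 1 and 2 was thus widest in Itgam-205. In Itgb2 the coding transcript Itgb2-201 held 70.9% ± 6.65 of the gene's TPM, and in Itgb1 the coding Itgb1-201 held 79.0% ± 2.33 (SD, n = 3).
By mean TPM the coding transcripts Itgax-201 (1.51 TPM), Itgal-201 (2.00 TPM), Itga6-201 (1.15 TPM) and Itgb5-202 (2.59 TPM) led in their genes. In replicate 1 the coding Itgal-204 (3.10 TPM) exceeded Itgal-201 (2.68 TPM). In the second quantification non-coding transcripts led in Itgax, with Itgax-202 at 3.16 against 2.21 TPM, and in Itgal, with Itgal-206 at 4.40 against 2.01 TPM. In the first quantification Itgax-202 and Itgal-206 had no more than 3 expected counts in any library.

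Several values rest on reads that could belong to more than one gene, and the strand setting of the counting is not given in the sources used here. Gm49368, a coding gene model that runs along Itgam and beyond on the same strand, shares 72.4% of the 50-base stretches of Itgam-201. It received 0, 1 and 5 expected counts, against 452, 1616 and 787 for Itgam. Inside Itgav and on the opposite strand lie Gm13684 (chr2:83737782-83759865, 58.2 ± 9.52 TPM, SD, n = 3) and the pseudogene Dnmt3l-ps1 (chr2:83744484-83745736, 59.0 ± 12.9 TPM). Exons of Gm13684 cover 22.8% of Itgav-209 and none of Itgav-203 or Itgav-208. Cerkl, opposite to the 3′ end of Itga4, stood at 2.13 TPM and covers 11.5% of Itga4-201. Only the longest coding transcript of each gene was searched for such stretches. That of Itgax shares 9.61% of its 50-base stretches with Itgad. Those of Itga4 (10.9%), Itgb5 (8.17%), Itga6 (6.50%) and Itgb2 (1.16%) also shared some with other genes. Those of Itga5, Itgal, Itgav and Itgb1 shared none. Exons of Dnmt3l-ps1 cover no annotated Itgav transcript. Without a known strand setting, reads from where Gm13684 or Dnmt3l-ps1 overlaps Itgav, introns included, cannot be told apart. The same holds where Cerkl overlaps Itga4.

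The 3 libraries were compared on TMM-normalised CPM (read counts per unit of library size, adjusted so that most genes match between libraries) and each library was set against the mean of the other 2. Replicate 1 was at least 1.5-fold lower for 4 of the 10 genes, while 18.8% of 13258 genes were, and at least 1.5-fold higher for none, while 16.9% were. Replicate 2 was at least 1.5-fold higher for 4 of the 10, against 11.4% of all genes, and lower for none, against 11.9%. Replicate 3 was apart for none of the 10, against 7.41% of all genes higher and 7.2% lower. With 1 group and 3 libraries no test was made of these counts, and leaving out a library leaves no such comparison of 1 with 2.

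Itgam had the widest range. It stood at 37.1, 99.1 and 57.0 CPM in replicates 1, 2 and 3, which is 2.03-fold lower in replicate 1 and 2.16-fold higher in replicate 2 than in the mean of the others. Itga5 stood at 1058, 2159 and 1823 CPM, 1.87-fold lower in replicate 1 and 1.55-fold higher in replicate 2. Itgb5 stood at 8.98, 20.5 and 18.1 CPM, 2.14-fold lower in replicate 1 and 1.61-fold higher in replicate 2. Itga6 stood at 7.91, 16.2 and 16.5 CPM and was 2.07-fold lower in replicate 1. In each of these genes replicate 1 was the lowest library. With library totals in place of TMM, 3 genes (Itgam, Itgb5 and Itga6) were at least 1.5-fold lower in replicate 1 and 2 (Itgam and Itgb2) higher in replicate 2, so neither call held for Itga5. Under that scaling 3 genes were at least 1.5-fold higher in replicate 1, where TMM gave none: Itgal by 1.71-fold, Itgax by 1.52-fold and Itga4 by 1.51-fold. Itga4 was then also lower in replicate 2 and Itgb2 lower in replicate 3. No share over all genes was computed for library totals, so these counts stand without one. Under that scaling the median of all genes in replicate 1 lay 0.213 above the mean of the 3 libraries on the log2 scale.

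Itgb2 took another form. It stood at 56.5, 104 and 56.1 CPM, so replicate 2 was 1.85-fold higher and replicates 1 and 3 were alike. Itgb1 stood at 147, 168 and 165 CPM and Itgav at 1177, 991 and 1009 CPM, the narrowest ranges of the 10, at 1.14-fold and 1.19-fold from lowest to highest. Itga4 stood at 1166, 840 and 1112 CPM, Itgal at 29.2, 21.2 and 21.5 CPM and Itgax at 9.30, 8.55 and 6.84 CPM. For Itgav, Itga4, Itgal and Itgax replicate 1 was the highest library, which sets them against the 4 genes that were low there.

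**Figure D4:**
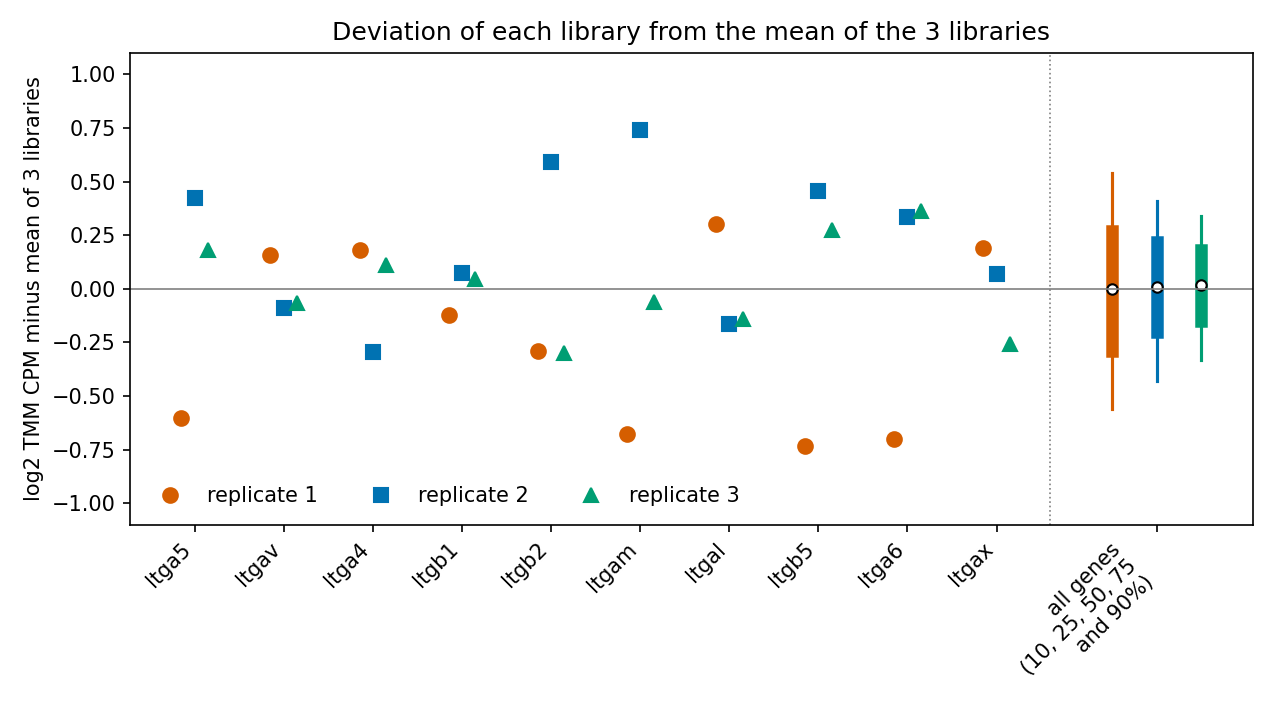
Log2 TMM CPM of each integrin gene in each library minus the gene's mean over the 3 libraries; at the right, the same for 13258 genes as percentiles (thin line 10 to 90, thick line 25 to 75, open circle median). Replicate 1 of Itga5, Itgam, Itgb5 and Itga6 lies at -0.60, -0.68, -0.73 and -0.70, below the 10th percentile of -0.56.

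Over the 10 genes the median deviation from the mean of the 3 libraries was -0.21, 0.21 and -0.01 on the log2 scale in replicates 1, 2 and 3, and over all 13258 genes it was -0.00, 0.01 and 0.02. Over the 10322 protein-coding genes among these, the class of all 10, it was -0.07, 0.05 and 0.04. In replicate 1, 6 of the 10 and 5971 of the 10322 lay below their mean. With library totals in place of TMM the median of all genes moved to 0.213, -0.104 and -0.081, and that of the integrin genes to 0.01, 0.09 and -0.11, so the direction in replicate 1 turned. Relative to all genes the integrin median lay at -0.202, 0.192 and -0.026. This difference is the same under both scalings by arithmetic, since a scaling moves every gene of a library by the same amount. The 10 macrophage markers (such as Csf1r, Mrc1 and Adgre1) had medians of -0.28, 0.22 and 0.02, close to those of the integrin genes. Replicate 1 also had the most starting RNA, 1000 ng, and the fewest counts, and replicate 2 the least starting RNA, 250 ng, and the most counts. The part of starting RNA and depth in these differences was not tested.

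By the Euclidean distance of log2 TMM CPM over the 3 libraries, the detected coding genes nearest to Itgam were Tecpr2 (0.23), Cfp (0.24) and Tubb2a (0.33). Cfp, properdin, a stabiliser of the complement C3 convertase, stood at 35.4, 84.7 and 57.2 CPM. Nearest to Itgb2 were Soga1 (0.26), 9930111J21Rik2 (0.31) and Lyz2 (0.33), the lysozyme gene of myeloid cells, which stood at 56.0, 83.7 and 52.9 CPM. The distance takes in both level and pattern and rests on 3 values per gene.

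Itgam, Itgax and Itgal lie on chromosome 7. Itgam (chr7:128062640-128118491, ENSMUSG00000030786.18), Itgax (chr7:128129547-128150657, ENSMUSG00000030789.9) and Itgad (chr7:128154376-128223816) follow each other on the plus strand, 11.1 kb and 3.72 kb apart. Their levels were 11.8, 3.39 and 0.0767 TPM, and Itgad, which codes for another Itgb2 partner, had 0, 6 and 4 expected counts and was not detected. In the second quantification Itgad was detected, at 7.20, 3.65 and 3.30 TPM. Between and beside them, the models Gm45700, Gm17831, Gm39091 and Gm22809 were listed at 0 in all 3 libraries. Itgal (chr7:127296260-127335138, ENSMUSG00000030830.18) lies 727.5 kb upstream of Itgam, between Gm31897 (0.0633 TPM) and Zfp768 (0.940 TPM). Between Itgal and Itgam lie 38 coding genes, of which 24 were detected and 8 had a higher mean level than Itgam.

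Of the 16 other integrin genes of the mouse, 6 were detected and none had a mean above 10 TPM. Itga9, an alpha subunit that pairs with Itgb1, was the highest at 8.85, 13.47 and 7.31 TPM (9.88 ± 3.21, SD, n = 3), above Itgal in all 3 libraries. Itga2b, the platelet alpha subunit, stood at 2.08 ± 1.28 TPM and its partner Itgb3 at 1.40 ± 0.360. The collagen receptor subunits Itga10 (0.750 TPM), Itga11 (0.633 TPM) and Itga2 (0.187 TPM) also passed the count limit. Itgb6 was listed at 0 in all 3 libraries and Itgb4 had a mean of 0.0100 TPM. In the second quantification 11 of the 16 were detected, Itgb6 among them at 3.91, 1.96 and 2.53 TPM. The share of all genes detected in the second quantification was not computed, here or for the lists below. Deviations are again from the first quantification. The median deviation of the other integrin genes (6 genes with a mean of at least 10 counts) was -0.58, 0.41 and 0.02 in replicates 1, 2 and 3.

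Of 24 genes for activators and adaptors of integrins, 20 were detected, and 23 in the second quantification. The highest were the actin crosslinker Flna (193 ± 126 TPM, SD, n = 3), the talin gene Tln1 (102 ± 9.11), Cyth1 (100.3 ± 26.8), which codes for a binder of the Itgb2 tail, and the paxillin gene Pxn (68.7 ± 6.25). Flna stood at 88.79, 333.28 and 156.89 TPM and was lowest in replicate 1, as Itgam was. Fermt1, a kindlin gene, and Parva were listed at 0, and Parva was detected in the second quantification at 1.12 TPM. Of the other kindlin genes, Fermt3 was detected, at 31.99, 61.69 and 53.67 TPM. Fermt2 was detected in the second quantification only. Of 12 genes for integrin signalling, 10 were detected, with the kinase Syk at 469 ± 59.7 TPM, the Rac activator Dock2 at 263 ± 15.2, the kinase Lyn at 71.2 ± 3.35 and the adaptor Crk at 57.7 ± 30.4. The lowest were the adaptor Bcar1 (0.340 TPM) and the kinase Fgr (0.120 TPM), and both were detected in the second quantification.

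Ligands and counter-receptors were detected for 9 of 16 listed genes. Icam1, the counter-receptor of LFA-1 and Mac-1, stood at 542.41, 300.1 and 449.67 TPM (431 ± 122, SD, n = 3), far above Itgal and Itgam in the same libraries. Spp1, the osteopontin gene, stood at 240 ± 99.8 TPM, C3, the source of the Mac-1 ligand iC3b, at 111 ± 41.3 and Tgfb1, whose latent form is activated by Itgav receptors, at 49.6 ± 8.77. The vitronectin gene Vtn and Madcam1 were listed at 0. All 6 listed membrane partners were detected: the urokinase receptor gene Plaur, an Itgam partner, at 181 ± 20.1 TPM and the tetraspanins Cd82 (13.2), Cd81 (9.45), Cd9 (4.58), Tspan4 (2.67) and Cd151 (2.47 TPM).

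The labelled cell type was checked against marker lists. All 10 macrophage markers were detected, with a summed level of 859 to 1009 TPM per library. None of 8 neutrophil markers was detected (summed 0.190 to 1.45 TPM; Ly6g and Retnlg listed at 0), none of 8 T and NK cell markers (0.0100 to 1.04 TPM; Cd3e, Cd3g, Trac, Ncr1 and Prf1 at 0) and none of 6 B cell markers (0.0500 to 0.220 TPM; Cd79b and Pax5 at 0). Dendritic cell markers summed to 1.07 to 2.17 TPM with 3 of 6 detected, and megakaryocyte and platelet markers to 2.82 to 5.79 TPM with 1 of 6 detected. Of 6 endothelial markers 2 were detected, Vwf at 50.4 ± 10.8 TPM (SD, n = 3) and Kdr at 1.57 TPM. Of 6 fibroblast markers none was detected, but Col1a1 had 0, 28 and 21, Col1a2 1, 25 and 14 and Col3a1 0, 19 and 12 expected counts in replicates 1, 2 and 3, so they were low in the library where Itga5, Itgam, Itgb5 and Itga6 were low. The part of such cells in those differences was not tested. In the second quantification 1 neutrophil, 2 T and NK cell, 2 B cell and 4 fibroblast markers reached the count limit in each library. So did 5 dendritic cell, 5 megakaryocyte and platelet and 3 endothelial markers. In these bulk samples fewer cells of a type and less RNA per cell cannot be told apart.

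The deposited data hold a second quantification of the same libraries, and all 10 genes were higher there, by 1.14-fold to 2.16-fold, 6 of them by more than 1.5-fold. Itga5 stood at 817 ± 43.4 TPM, Itgav at 442 ± 68.97, Itga4 at 252 ± 63.0, Itgb1 at 90.7 ± 13.2, Itgb2 at 39.9 ± 9.82 and Itgam at 13.5 ± 4.91 (SD, n = 3 each). Itgal (11.1), Itgb5 (8.09), Itgax (6.93) and Itga6 (4.32 TPM) followed. The order of the means was the same as in the first quantification except that Itgax lay above Itga6. Itgam (8.99 to 18.72 TPM) and Itgal (6.42 to 16.72 TPM) overlapped between libraries there, which they did not in the first. Itgb1 changed most, from 42.0 to 90.7 TPM, and the transcripts given levels there included Itgb1-203 (retained intron) at 30.04 TPM and Itgb1-202 (nonsense-mediated decay) at 16.7 TPM, against 7.90 and 0.857 TPM in the first. Mir6963, a microRNA gene inside Itga5, was listed at 0 in the first quantification and at 334 ± 124 TPM in the second.

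**Figure D5:**
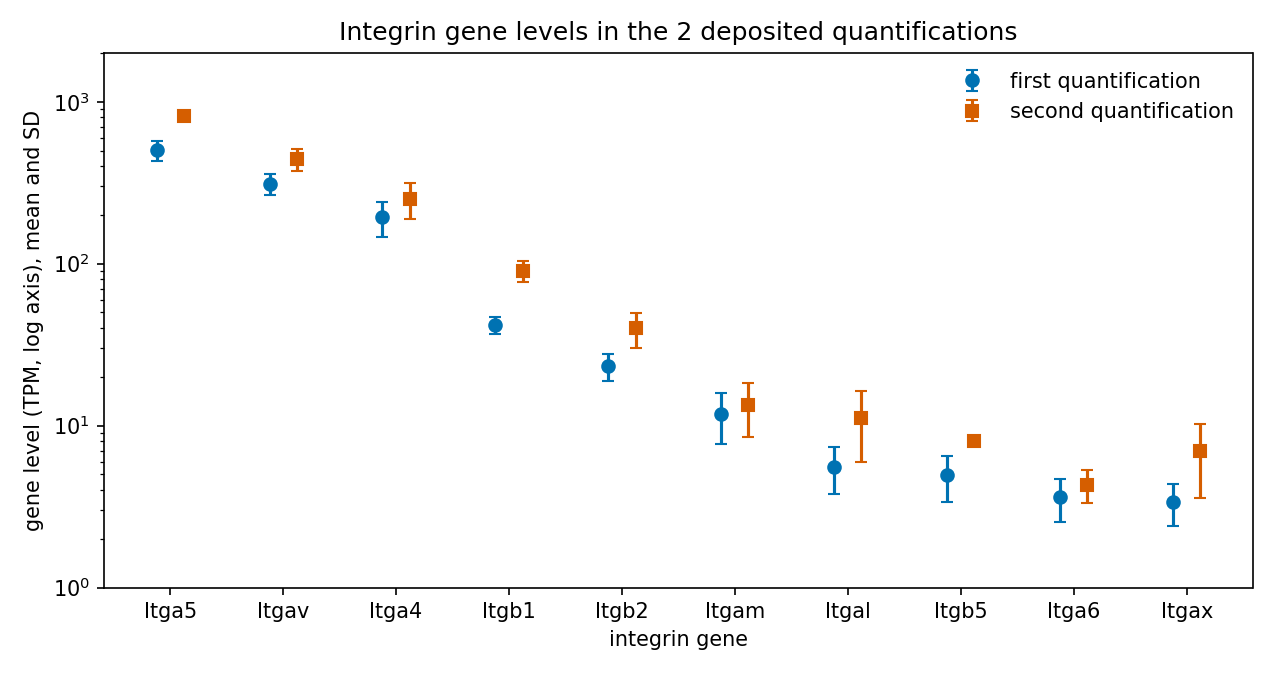
Gene level in TPM (log axis), as mean and SD of 3 libraries, in the first and second deposited quantification. The second lies above the first for all 10 genes, by 1.14-fold for Itgam to 2.16-fold for Itgb1.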

How the data were processed

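The 3 libraries held 10496703, 17687379 and 14806118 expected counts in genes in replicates 1, 2 and 3, of which the 10 integrin genes took 0.430%, 0.408% and 0.400%. The deposited gene and transcript tables give expected counts, TPM and FPKM as made by the authors, per the headers of the files; a second deposited transcript table gives estimated counts and TPM and was summed by gene. Reads had been placed on mm10 with GENCODE M21 genes, per the submitters' processing notes; aligner, quantifier, versions and strand setting are not given in the sources used here. A row that names no mouse gene, mainly phiX174, held 1.28%, 0.427% and 0.383% of counts and was left out. Transcript names, classes and coordinates came from GENCODE M21.

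Expected counts were rounded to whole numbers. TMM scaling over all annotated genes, in edgeR 4.0.16 (R 4.3.3), gave log2 CPM with 0.5 added. Comparisons of libraries over all genes then used the 13258 genes with a mean of at least 10 counts. The script was tested on simulated data. No contrast between groups exists, so no test was made. A count of 0 leaves room for as many as 3 counts, for counting error alone. The integrin genes and the other lists were chosen with earlier results of these data known. The text names all 10 genes, every other detected integrin gene, chromosome 7 neighbours and the 3 genes nearest to Itgam and Itgb2. It also names the leading transcript of each of the 10. Of each list of integrin-related genes it names the 4 highest and 2 lowest by mean TPM. Cell type markers are given by counts, sums and genes at 0 in place of that rule. Other transcripts, the other named markers, Vwf, Kdr, the collagen genes, Fermt2, Fermt3 and overlapping genes were chosen after their values were seen. Alternatives were the second quantification, FPKM, other scalings, other count limits and leaving out a library.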

Additional observations from a re-analysis of the deposited data

How the results depend on the processing

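No paired analysis was possible because the 3 libraries form 1 group. Of 168 recomputed values, 130 stayed within the spread between libraries (1 SD) or, for counts, within 1.5 times. All 81 that left out a library were among them. Leaving out 1 of 3 libraries cannot move a mean by more than the SD of the 3, nor lose a detected gene. Most of those 81 could thus not have come out otherwise and say little about stability. Other integrin genes detected numbered 6, but 12 with a limit of 1 count, 2 with a limit of 50 counts and 11 in the second quantification. All 10 members stayed detected under each of these limits. The median level over the 10 genes was taken in each library and averaged over libraries. It was 17.5 TPM, 28.0 TPM in the second quantification, 22.9 in FPKM, and 15.3 to 18.7 TPM with a library left out. The median protein-coding share was 65.1%, 95.0% by expected counts, 46.6% in the second quantification, and 65.6% to 66.0% with a library left out. The share of Itgb2 among the beta genes was 33.2%, and 29.8% to 36.0% with a library left out. The median deviation in replicate 1 was -0.21, turned to 0.012 with library totals, which moved the median of all genes to 0.213, and was -0.27 to -0.04 with a library left out, the latter without replicate 2. Members at least 1.5-fold higher in replicate 2 numbered 4, and 2 (Itgam and Itgb2) with library totals. There 3 (Itgal, Itgax and Itga4) were higher in replicate 1, against 0 under TMM. The share over all genes was not computed for library totals, the other count limits or the second quantification. The causes were not tested. Depth limits Itgax, Itga6 and Itgb5 most, with as few as 94 expected counts.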
